A study of Mus musculus with 4 samples.

Results

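The genes described here are 41 mouse genes that carry glucose to pyruvate and lactate, divert it into the pentose phosphate pathway, or control its entry into the mitochondrion. They were chosen by gene symbol from the 55421 genes of the deposited count table and all 41 symbols were found. Aldoa has 2 rows in that table, and the row with more counts was used, since the other held 3, 9, 10 and 7 counts in the 4 libraries. The series compares CD1 spermatogonial cultures under nutrient restriction with retinoic acid (NRRA) with cultures under vehicle (Veh), by bulk RNA-seq with 2 libraries in each group. The cultures were derived from testes of pups under a week old and were kept on irradiated mouse embryonic fibroblasts, in medium with N2 supplement, bFGF and GDNF. Veh cultures stayed in the complete medium, whereas in NRRA cultures most of it was replaced by a balanced salt solution and retinoic acid was added. The change of medium and retinoic acid were given together and cannot be told apart in this design, and no metabolite was measured in these libraries. The study's methods describe the sequenced replicates as biological and independent, and the labels do not say how they were kept apart. The p-values rest on the spread between 2 libraries a group.

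Glycolysis splits glucose into pyruvate in the cytosol. Hexokinase traps glucose in the cell, phosphofructokinase commits it to breakdown, and pyruvate kinase makes pyruvate at the end. Pyruvate is either reduced to lactate by lactate dehydrogenase and exported, or oxidised in mitochondria by the pyruvate dehydrogenase complex, which pyruvate dehydrogenase kinases switch off and a phosphatase switches on. The pentose phosphate pathway branches off after hexokinase and yields NADPH and ribose for nucleotides. Male germ cells carry their own copies of several of these enzymes. In the testis, Pgk2, Ldhc and Pdha2 are used from meiosis onwards, and Gapdhs in spermatids and sperm. Pgk2 and Pdha2 are autosomal copies of the X-linked genes Pgk1 and Pdha1, which are silenced together with the X chromosome in spermatocytes.

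Library totals ranged from 28022265 to 31604769 counts, over 29225 to 29745 genes with at least 1 count. A level is given in CPM (the counts of a gene relative to all counts of its library, on the usual per-million scale), made comparable between libraries by the trimmed mean of M-values (TMM). Stra8, a direct target of retinoic acid and a gatekeeper of meiosis, was at 9.62 and 10.1 CPM in Veh and at 1864 and 1853 CPM in NRRA. Of 12 germ cell markers none was at 0, and Ddx4, the germ cell RNA helicase VASA, was at 268 to 278 CPM in all 4 libraries. All 25 fibroblast markers also had counts in every library. In such bulk libraries, fewer cells of a type and less RNA per cell cannot be told apart.

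Most of the 41 genes were lower in NRRA. Of the 17 enzymes from glucose to pyruvate other than the germline isoforms Gapdhs and Pgk2, 13 fell and 2 rose, with a median log2 fold change of -0.40. All 4 pentose phosphate genes of the set fell. The regulatory genes were mixed, with the largest rises in Pdk4 and Pfkfb4. Of the 40 genes with enough counts to be tested, 24 (60.0%) were called lower and 8 (20%) higher at an adjusted p of 0.05, and 8 were not called. Calls were frequent in the whole transcriptome too. Of 20232 genes tested, 56.4% were called in either direction, 28.4% lower and 27.9% higher. The share of the 41 genes called lower was thus above this background and the share called higher was below it. The median log2 fold change was -0.30 over the 40 genes, and -0.32 to -0.26 when each NRRA library was set against each Veh library, beside 0.0003 over all tested genes. Falls of at least 2-fold were called for 4 of the genes (Hk2, Ldha, Pkm and Slc2a3), against 7.02% of all tested genes. Rises of at least 2-fold were called for 2 (Pdk4 and Pfkfb4), against 6.29% of all tested genes. Without Veh replicate 2 the log2 fold change of Pfkfb4 was 0.83, which leaves Pdk4 alone past 2-fold. Together the 41 genes took 0.519% and 0.527% of all counts in Veh and 0.363% and 0.362% in NRRA.

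**Figure D1:**
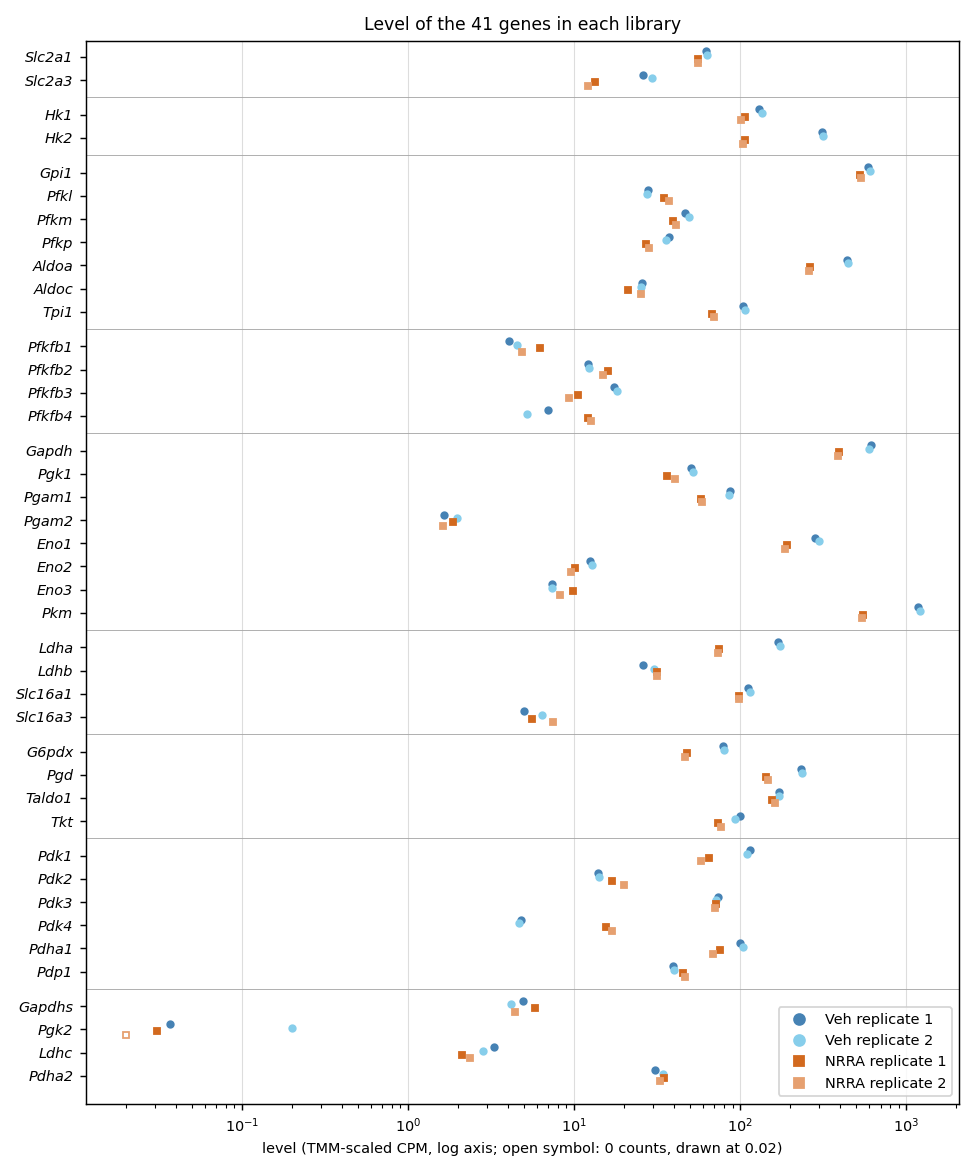
Level of each of the 41 genes in each library (TMM-scaled CPM on a log axis), grouped by role, with circles for the 2 Veh and squares for the 2 NRRA libraries. Pkm, at 1184 and 1205 CPM in Veh and 546 and 543 CPM in NRRA, has the most CPM of the set, and the circles and squares separate widely for Hk2, Ldha and Pdk4.

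**Figure D2:**
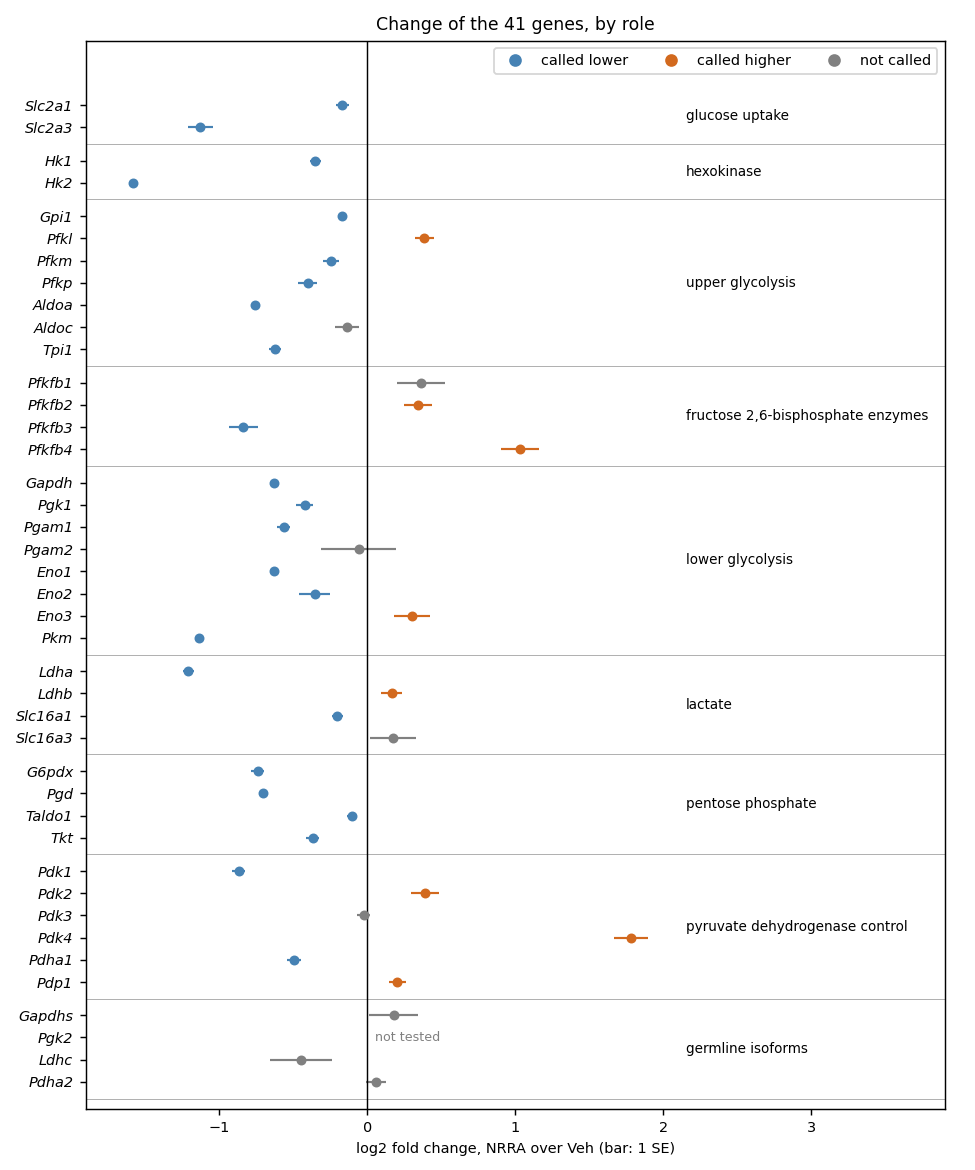
Fitted log2 fold change of NRRA over Veh for the 40 tested genes by role, with bars of 1 standard error (SE) and colours for the call at an adjusted p of 0.05. The 24 genes called lower lie left of 0, and Pdk4 at 1.78 and Pfkfb4 at 1.03 lie farthest to the right.

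Promoters are shown for the tested genes with the largest fall (Hk2) and the largest rise (Pdk4), for Ldha, and for the somatic and germline phosphoglycerate kinases Pgk1 and Pgk2. Hypoxia-inducible factor, a known activator of glycolytic genes, binds a core of ACGTG or GCGTG. This core was searched on both strands, so that CACGT and CACGC also count, from 250 bases before to 50 bases after each start site in RefSeq (GRCm38.p6). It overlaps the E-box CACGTG, which MYC and related factors bind. The core stood in at least 1 promoter of 33 of the 39 genes with a listed promoter (84.6%), against 46.7% of 27025 genes in all. Counted by promoter, it stood in 70.5% of 61 promoters of these genes and in 43.8% of 32851 promoters in all. It was in 20 of 23 genes called lower, in 7 of 7 called higher, in 6 of 8 not called, and in 2 of the 4 germline isoforms, so that genes of both directions held it. Pdp1 and Slc2a3 had no listed promoter. Both forms of the core contain the bases CG, and the comparison with all genes was matched neither for how often CG stands in a promoter nor for expression.

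The sequences run 5′ to 3′ up to the start site in lower case, with the core in capitals on whichever strand it was found. That of Hk2 is chr6:82774455-82774704 (minus strand) with 2 matches. That of Ldha is chr7:46845554-46845803 (plus strand) with 5 matches, since each CACGTG counts on both strands, and is the upstream one of 2 listed. That of Pdk4 is chr6:5496310-5496528 (minus strand) with 1 match, that of Pgk1 is chrX:106186850-106187099 (plus strand) with 2, and that of Pgk2 is chr17:40208641-40208859 (minus strand) with none. The stretches of Pdk4 and Pgk2 end 32 bases before the listed start site, where an annotated exon begins.
Hk2: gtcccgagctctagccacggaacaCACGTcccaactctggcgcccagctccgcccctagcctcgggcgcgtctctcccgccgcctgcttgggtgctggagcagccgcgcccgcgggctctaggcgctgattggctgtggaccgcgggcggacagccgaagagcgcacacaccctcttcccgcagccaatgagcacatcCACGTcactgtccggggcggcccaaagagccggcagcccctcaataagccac
Ldha: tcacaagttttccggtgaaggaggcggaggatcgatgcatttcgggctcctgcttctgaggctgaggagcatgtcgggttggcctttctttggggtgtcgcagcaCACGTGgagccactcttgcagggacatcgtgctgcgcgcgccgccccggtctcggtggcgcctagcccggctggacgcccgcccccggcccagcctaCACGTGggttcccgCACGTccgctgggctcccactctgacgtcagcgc
Pdk4: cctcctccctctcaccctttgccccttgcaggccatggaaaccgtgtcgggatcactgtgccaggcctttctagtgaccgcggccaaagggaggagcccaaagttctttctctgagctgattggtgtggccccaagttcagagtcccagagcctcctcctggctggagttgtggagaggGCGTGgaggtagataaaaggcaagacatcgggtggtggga
Pgk1: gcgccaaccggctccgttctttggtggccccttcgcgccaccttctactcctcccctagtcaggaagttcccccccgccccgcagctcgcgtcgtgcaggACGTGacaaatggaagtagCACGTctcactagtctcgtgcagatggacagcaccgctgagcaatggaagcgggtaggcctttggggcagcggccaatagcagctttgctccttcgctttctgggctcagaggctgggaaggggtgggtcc
Pgk2: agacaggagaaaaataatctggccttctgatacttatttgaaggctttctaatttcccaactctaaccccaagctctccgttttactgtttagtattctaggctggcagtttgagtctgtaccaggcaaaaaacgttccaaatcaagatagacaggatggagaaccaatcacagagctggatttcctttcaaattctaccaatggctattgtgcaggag
A match describes the letters only, and no binding was measured.

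Both glucose transporters among the 41 genes fell, whereas Slc2a8 and Slc2a4, glucose transporters outside the set, rose (log2 fold changes 0.94 and 1.82). Slc2a3, the high-affinity transporter GLUT3, was at 26.1 and 29.5 CPM in Veh and at 13.3 and 12.2 CPM in NRRA. Both NRRA libraries lay far below both Veh libraries, with a log2 fold change of -1.13 (SE 0.085, adjusted p = 1.24e-11). Slc2a1, the basal transporter GLUT1, fell far less, from 62.5 and 63.2 CPM to 55.8 and 56.1 CPM, with a log2 fold change of -0.17 (SE 0.047, adjusted p = 0.00359). The call for Slc2a1 was lost with DESeq2 (adjusted p = 0.0625) and without scaling beyond library size (log2 fold change -0.078, adjusted p = 0.166), whereas that for Slc2a3 held under all 15 alternatives.

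Hk2 had the largest fall of the 40 tested genes. This inducible hexokinase, which binds to mitochondria and is typical of proliferating cells, was at 309.7 and 317.5 CPM in Veh and at 106.3 and 103.4 CPM in NRRA. Each NRRA library lay far below each Veh library, and the fall was 2.99-fold (log2 fold change -1.58, SE 0.031, adjusted p = 6.26e-24). Hk1, the housekeeping hexokinase, fell from a mean of 133 ± 3.50 CPM to 104 ± 3.91 CPM (SD, n = 2), a log2 fold change of -0.35 (adjusted p = 9.40e-09). Because Hk2 fell more, the 2 hexokinases changed their proportions. Per kilobase of exon, Hk2 made up 77.2% and 77.0% of their sum in Veh and 58.7% and 59.3% in NRRA. With the length of the longest coding transcript in place of all exons, its mean share went from 64.7% to 43.8%, so that the order of Hk1 and Hk2 in NRRA depends on the length used. The summed level of both was 67.2 and 69.1 CPM per kb in Veh and 30.3 and 29.2 CPM per kb in NRRA, a fall by 56.3% between the means. With 2 libraries against 2, an exact permutation test of a share cannot go below p = 0.333, so shares are given without a test.

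In the upper part of glycolysis, from glucose 6-phosphate to the triose phosphates, 5 of 7 genes fell, 1 rose and 1 was not called. Of all tested genes, 28.4% were called lower and 27.9% higher. Aldoa, the main aldolase, which cleaves the hexose bisphosphate, was at 442.5 and 444.4 CPM in Veh and at 264.9 and 260.8 CPM in NRRA. The replicates were nearly identical beside the distance between the groups (log2 fold change -0.76, SE 0.026, adjusted p = 8.58e-19). Tpi1, which interconverts the triose phosphates, fell by a similar amount (log2 fold change -0.63, adjusted p = 7.18e-13). Gpi1, the isomerase that follows hexokinase, changed little, with a log2 fold change of -0.17 (mean 600.2 ± 12.4 CPM in Veh and 533 ± 3.72 CPM in NRRA, n = 2, adjusted p = 7.91e-07). Aldoc, the brain-type aldolase, was at 25.7 and 25.2 CPM in Veh and at 21.03 and 25.38 CPM in NRRA, so the groups overlapped and it was not called (adjusted p = 0.161).

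The 3 phosphofructokinase subunits parted. Pfkl, the liver-type subunit, rose from 27.8 and 27.5 CPM to 34.9 and 37.4 CPM (log2 fold change 0.38, SE 0.064, adjusted p = 1.18e-05). Pfkm, the muscle-type subunit, and Pfkp, the platelet-type subunit, fell, with log2 fold changes of -0.25 (adjusted p = 4.99e-04) and -0.40 (adjusted p = 5.25e-06). The share of Pfkl in the CPM per kb of the 3 subunits was 20.02% and 19.15% in Veh and 27.4% and 28.0% in NRRA. Their sum changed little, from 20.8 and 21.5 CPM per kb to 19.06 and 20.03 CPM per kb.

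The 4 bifunctional enzymes that make and remove fructose 2,6-bisphosphate, the strongest activator of phosphofructokinase, also went in opposite directions. Pfkfb3, whose kinase activity far exceeds its phosphatase activity, was at 17.4 and 18.1 CPM in Veh and at 10.5 and 9.37 CPM in NRRA. Both NRRA libraries were well below both Veh libraries (log2 fold change -0.84, SE 0.097, adjusted p = 4.15e-08). Pfkfb4, an isoform first described in testis, was at 7.01 and 5.24 CPM in Veh and at 12.2 and 12.7 CPM in NRRA. It rose 2.04-fold, although the Veh libraries differed from each other more than for most of these genes (log2 fold change 1.03, SE 0.13, adjusted p = 9.73e-08). Pfkfb2, the heart-type isoform, rose by a log2 fold change of 0.34 (adjusted p = 0.00297), a call that DESeq2 did not make (adjusted p = 0.0515). Pfkfb1, the liver-type isoform and X-linked, was at 4.06 and 4.54 CPM in Veh and at 6.20 and 4.85 CPM in NRRA and was not called (log2 fold change 0.36, SE 0.16, adjusted p = 0.0565). This value rests on single libraries, since it was 0.18 without NRRA replicate 1 and 0.53 without NRRA replicate 2. Some alternatives called Pfkfb1 higher, such as upper quartile scaling (adjusted p = 0.0442), library size only (0.0178) and a filter at 1 CPM (0.0496). In the CPM per kb of the 4 isoforms, the share of Pfkfb3 went from 35.8% and 38.0% to 18.2% and 17.4%, and that of Pfkfb4 from 22.3% and 17.1% to 32.7% and 36.6%.

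In the lower part of glycolysis, from the triose phosphates to pyruvate, 6 of 8 genes other than the germline isoforms fell. Of all tested genes, 28.4% were called lower. Pkm, the pyruvate kinase of most tissues other than liver and red cells, was at 1184 and 1205 CPM in Veh and at 546 and 543 CPM in NRRA. Its mean was 239 CPM per kb of exon in Veh and 109 CPM per kb in NRRA, a 2.19-fold fall (log2 fold change -1.13, SE 0.022, adjusted p = 5.61e-24). The gene-level counts do not separate its M1 and M2 splice forms. Gapdh, often used as a reference gene for quantitative PCR, was at 611 and 597 CPM in Veh and at 392 and 389 CPM in NRRA. It was thus lower in both NRRA libraries by a log2 fold change of -0.63 (SE 0.024, adjusted p = 1.23e-17). Eno1, the main enolase, and Pgam1, the main phosphoglycerate mutase, fell alongside it, with log2 fold changes of -0.63 (adjusted p = 1.28e-15) and -0.56 (adjusted p = 2.08e-11).

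The minor isoforms of these steps behaved less uniformly. Eno2, the neuronal enolase, fell (log2 fold change -0.36, adjusted p = 0.00463), a call lost with DESeq2 (adjusted p = 0.0808) and without NRRA replicate 2 (log2 fold change -0.31, adjusted p = 0.0503). Eno3, the muscle enolase, was at 7.34 and 7.36 CPM in Veh and at 9.83 and 8.27 CPM in NRRA and was called higher only narrowly (log2 fold change 0.30, SE 0.12, adjusted p = 0.0403). That call was lost with DESeq2 (adjusted p = 0.239) and in 3 of the 4 fits that left out a library: Veh replicate 1 (0.0848), Veh replicate 2 (0.0746) or NRRA replicate 1 (0.391, with a log2 fold change of 0.175). Pgam2, the muscle mutase, was at 1.66 to 1.98 CPM in Veh and 1.63 to 1.87 CPM in NRRA and was not called (adjusted p = 0.868).

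Several of these genes have processed pseudogenes, and how the counting treated reads that map to more than 1 place is not given in the sources used here. Stretches with at least 95% identity elsewhere in the annotated transcripts cover 88.0% of the longest coding transcript of Gapdh, 85.6% of that of Eno1, 76.8% of Ldhb, 68.8% of Pgk1, 65.5% of Pkm, 55.3% of Gpi1 and 55.0% of Ldha. Genes that match at least 20% of a transcript in this way were counted as copies, most of them pseudogenes. Those of Gapdh, 78 in number, held 10463 counts over all 4 libraries beside 58797 for Gapdh itself, and 9479 of them were in a single pseudogene, Gm13394. For Eno1 the 3 copies, among them the protein-coding Eno1b, held 8546 counts beside 28290, for Pkm the only copy past that limit held 577 beside 102107, and for Gpi1 the only one held 448 beside 67534. Exons of other genes on the same strand overlap 15.3% of the exon bases of Pkm, 17.4% of those of Pfkfb2 and 10.2% of those of Pfkm. Adding the counts of the copies to their parent genes changed no call and no direction among the 40 tested genes. Hk2, Slc2a3 and Pdha2 have no such stretch.

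Lactate dehydrogenase shifted between its subunits. Ldha, the muscle-type subunit that favours lactate formation, was at 169.6 and 175.0 CPM in Veh and at 75.0 and 74.0 CPM in NRRA. Both NRRA libraries lay far below both Veh libraries, a 2.31-fold fall (log2 fold change -1.21, SE 0.036, adjusted p = 5.22e-20). Ldhb, the heart-type subunit that favours lactate use, was at 26.0 and 30.2 CPM in Veh and at 31.5 and 31.7 CPM in NRRA. Its rise was barely called and smaller than the gap between the Veh libraries (log2 fold change 0.17, SE 0.071, adjusted p = 0.0477). It was lost with DESeq2 (adjusted p = 0.220), without the robust setting (0.0502), and without Veh replicate 1 (0.521), NRRA replicate 1 (0.0934) or NRRA replicate 2 (0.125). Leaving out Veh replicate 1 gave a log2 fold change of 0.065, and leaving out Veh replicate 2 gave 0.279. Per kilobase, Ldha made up 73.3% and 71.6% of the lactate dehydrogenase sum in Veh and 51.5% and 50.8% in NRRA, while Ldhb went from 23.7% and 26.0% to 45.5% and 45.8%. By the longest coding transcript the mean share of Ldhb was 18.1% in Veh and 36.2% in NRRA.

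Of the lactate transporters, Slc16a1, the widely expressed carrier MCT1, fell slightly from a mean of 114 ± 2.08 CPM to 98.9 ± 0.302 CPM (n = 2, log2 fold change -0.20, adjusted p = 4.10e-05). Slc16a3, the exporter MCT4 of strongly glycolytic cells, was at 5.01 and 6.45 CPM in Veh and at 5.59 and 7.44 CPM in NRRA. Its groups overlapped and it was not called (log2 fold change 0.18, SE 0.16, adjusted p = 0.364).

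All 4 pentose phosphate genes of the set fell, G6pdx and Pgd of the oxidative branch most. Further genes of the pathway, described below, were called in both directions. G6pdx, the glucose 6-phosphate dehydrogenase that sets the rate of NADPH formation, was at 78.4 and 80.1 CPM in Veh and at 47.9 and 46.9 CPM in NRRA. Both NRRA libraries lay well below both Veh libraries (log2 fold change -0.74, SE 0.047, adjusted p = 3.10e-13). Pgd, the next dehydrogenase of that branch, fell by much the same amount (log2 fold change -0.70, adjusted p = 1.41e-16). In the non-oxidative branch, which reshuffles sugars between pentoses and glycolysis, Tkt (transketolase) fell by a log2 fold change of -0.37 (adjusted p = 4.89e-08). Taldo1 (transaldolase) fell by only -0.10 (mean 171 ± 0.508 CPM in Veh and 159 ± 4.31 CPM in NRRA, n = 2, adjusted p = 0.00815), and this call was lost with DESeq2 (adjusted p = 0.0811), with library size only (0.753, with a log2 fold change of -0.013) and without NRRA replicate 1 (0.191). For G6pdx, 13.6% of exon bases lie opposite exons of Ikbkg on the other strand, and the strand setting of the counting is not given in the sources used here.

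The genes that govern the pyruvate dehydrogenase complex moved in both directions, 3 higher and 2 lower of 6. Among all tested genes, 27.9% were called higher and 28.4% lower. Pdk4, the kinase isoform that fasting induces in many tissues, had the largest rise of the 41 genes. It was at 4.83 and 4.64 CPM in Veh and at 15.6 and 16.9 CPM in NRRA, a 3.43-fold rise with close replicates (log2 fold change 1.78, SE 0.12, adjusted p = 5.83e-13). Pdk1, the kinase isoform best known as a hypoxia target, was at 114 and 111 CPM in Veh and at 64.6 and 58.4 CPM in NRRA. It fell by a log2 fold change of -0.87 (SE 0.045, adjusted p = 6.56e-15), so the 2 isoforms crossed in direction although Pdk1 stayed the more abundant per kilobase. Pdk2, the most widespread isoform, rose (log2 fold change 0.39, adjusted p = 8.02e-04), with the call lost without NRRA replicate 2 (adjusted p = 0.0514). Pdk3, the X-linked isoform, was at 73.3 and 71.5 CPM in Veh and 71.3 and 71.1 CPM in NRRA and was not called (adjusted p = 0.673).

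Per kilobase, Pdk3 made up most of the kinase sum in every library, at 58.3% and 58.2% in Veh and 60.6% and 59.8% in NRRA. Around it, Pdk1 went from 29.9% and 29.7% to 18.1% and 16.2%, and Pdk4 from 2.81% and 2.75% to 9.67% and 10.4%. The sum of the 4 kinases was 49.03 and 47.97 CPM per kb in Veh and 45.9 and 46.4 CPM per kb in NRRA, a fall by 4.83% between the means. Pdp1, the phosphatase that reactivates the complex, rose modestly from 39.6 and 39.8 CPM to 45.1 and 46.5 CPM (log2 fold change 0.20, adjusted p = 0.00247).

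**Figure D3:**
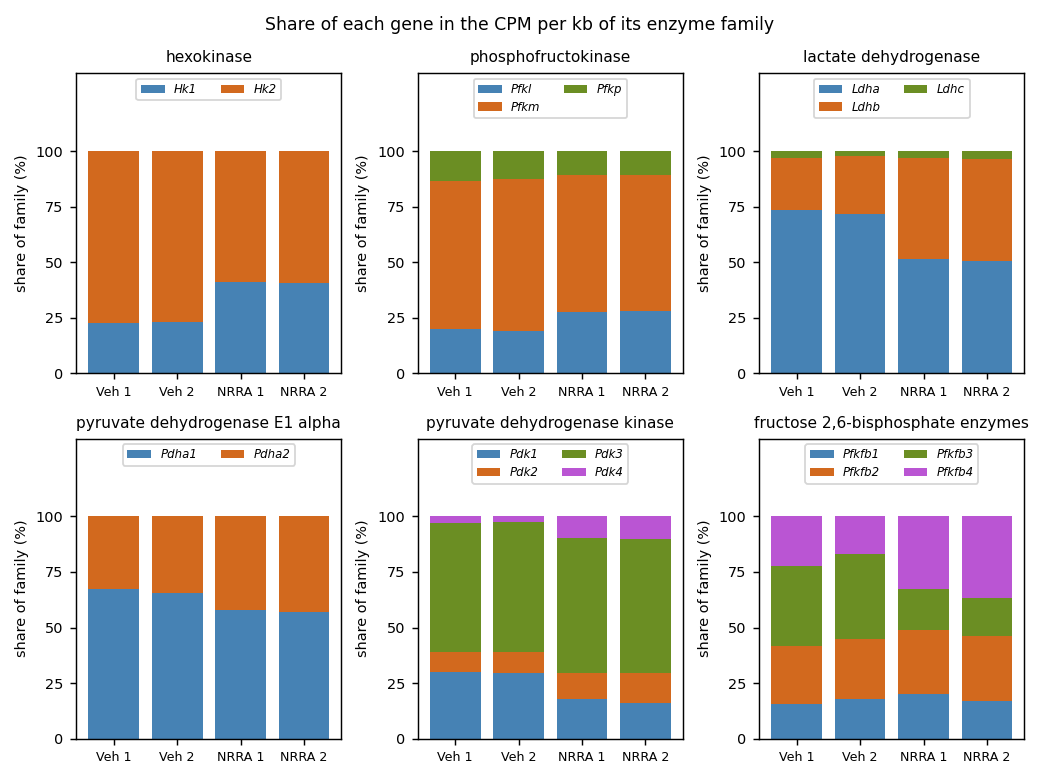
Share of each gene in the CPM per kilobase of exon of its enzyme family, in percent, for the 2 Veh and 2 NRRA libraries. Hk2 goes from 77.2% and 77.0% to 58.7% and 59.3%, Ldha from 73.3% and 71.6% to 51.5% and 50.8%, and Pdk4 from 2.81% and 2.75% to 9.67% and 10.4%.

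Of the 4 germline isoforms, 3 could be tested, and neither edgeR nor DESeq2 called any of them. Among these, Ldhc was at an unadjusted p of 0.0416 in edgeR. Its log2 fold change (-0.45) was close to those of Pgk1 (-0.42) and Pdha1 (-0.49), but its SE was larger (0.21). The somatic counterparts Pgk1, Pdha1, Ldha and Gapdh fell, and Ldhb, the other counterpart of Ldhc, was narrowly called higher (0.17). Pgk1, the X-linked somatic phosphoglycerate kinase (chrX:106187100-106203699, 11 exons), was at 51.0 and 52.0 CPM in Veh and at 36.5 and 40.4 CPM in NRRA (log2 fold change -0.42, SE 0.057, adjusted p = 5.28e-07). Pgk2, its single-exon autosomal copy (chr17:40207015-40208640), held only 1 and 6 counts in Veh and 1 and 0 counts in NRRA. It was too low to be tested, and a count of 0 at this depth allows up to 3 counts, or 0.0997 CPM in NRRA replicate 2. No induction of Pgk2 was detectable at this depth.

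Pdha1, the X-linked E1 alpha subunit of the complex (chrX:160122209-160138413, 11 exons), was at 99.7 and 104.5 CPM in Veh and at 76.1 and 68.8 CPM in NRRA. It fell by a log2 fold change of -0.49 (SE 0.046, adjusted p = 6.48e-10), with 16.2% of its exon bases opposite exons of Map3k15. Pdha2, its single-exon autosomal copy (chr3:141210004-141212355), was per kilobase the most abundant of the germline isoforms, at 30.6 and 34.5 CPM in Veh and at 34.9 and 33.0 CPM in NRRA. The groups overlapped, and it was not called (log2 fold change 0.06, SE 0.067, adjusted p = 0.471). Its share of the E1 alpha sum per kilobase was 32.8% and 34.4% in Veh and 42.2% and 43.2% in NRRA, so the share was higher in NRRA while the level of Pdha2 overlapped between the groups. The longest coding transcripts of the pair are 76.0% identical over their aligned bases, and no annotated transcript is near-identical to Pdha2.

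Ldhc, the lactate dehydrogenase of spermatocytes and sperm (chr7:46861203-46878142, next to Ldha), held 89 and 84 counts in Veh and 69 and 71 counts in NRRA, or 3.28 and 2.82 CPM against 2.12 and 2.36 CPM. Both NRRA libraries were below both Veh libraries, but it was not called (log2 fold change -0.45, SE 0.21, adjusted p = 0.0708). Gapdhs, the glycolytic enzyme of the sperm tail (chr7:30729775-30743681), was at 4.90 and 4.20 CPM in Veh and at 5.87 and 4.39 CPM in NRRA. The groups overlapped and it was not called (log2 fold change 0.18, SE 0.17, adjusted p = 0.380). On the other strand, exons of the antisense gene Tmem147os cover 10.1% of the exon bases of Gapdhs. Ldhc made up 2.97% and 2.42% of lactate dehydrogenase per kilobase in Veh and 3.04% and 3.39% in NRRA, and Gapdhs made up 2.02% and 1.78% of its pair with Gapdh in Veh and 3.70% and 2.81% in NRRA. The share of Gapdhs in Veh was 0.729% by the longest coding transcript, below the 1.90% given by all exons.

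Among 13 markers of late spermatogenic cells, 6 had enough counts to be tested. The acrosomal gene Spaca1 was called higher (log2 fold change 0.72) and the spermatid nuclear protein gene Tnp1 lower (log2 fold change -1.39). Together the 13 took 0.000824% to 0.00113% of the counts in the 4 libraries, and the sperm calcium channel gene Catsper1 was at 0 in all of them.

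Of the 41 genes, 5 are X-linked: Pgk1, G6pdx and Pdha1, which fell, and Pdk3 and Pfkfb1, which were not called. Their median log2 fold change was -0.42, beside -0.25 over the 35 tested autosomal genes, of which 21 were called lower and 8 higher. No test of this difference was made.

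Genes of the same pathways outside the 41 were called in both directions, as were all tested genes (27.9% higher and 28.4% lower). Of 10 tested genes among 15 further glucose and glycolysis genes, 4 were called higher and 4 lower, with a median log2 fold change of 0.07. They ranged from the low-abundance hexokinase Hk3 (-1.35, with 37 and 35 counts in Veh against 15 and 16) to Slc2a4, the insulin-responsive transporter GLUT4 (1.82, with 20 and 34 counts in Veh against 113 and 98). Of 15 further lactate and pyruvate genes, 7 were called higher and 3 lower (median 0.07). The lowest was Emb, an ancillary protein of monocarboxylate transporters, at 39.2 and 43.5 CPM in Veh and 16.1 and 15.0 CPM in NRRA (log2 fold change -1.41). The highest was Slc16a8, another transporter of that family, at 1.51 and 1.41 CPM in Veh and 2.73 and 2.59 CPM in NRRA (log2 fold change 0.87).

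Of 10 further pentose phosphate genes, 5 were called higher and 4 lower (median 0.12). These went from Prps2, which makes phosphoribosyl pyrophosphate from ribose 5-phosphate (-0.45), to Shpk, a sedoheptulose kinase (1.11). Named after their values were seen, Pgls of the oxidative branch fell by only -0.22, and Tktl1, a transketolase-like gene, rose by 0.50. Genes of the hypoxia response were split as well, with 11 of 26 called higher and 11 lower (median 0.18), beside 27.9% and 28.4% of all tested genes. This list pools subunits and regulators of hypoxia-inducible factor with its targets. The extremes were Cited2, a feedback inhibitor of hypoxia-inducible factor, at 83.0 and 79.9 CPM in Veh and 29.6 and 29.7 CPM in NRRA (-1.46), and the mitophagy receptor Bnip3, at 10.1 and 10.7 CPM in Veh and 33.1 and 34.2 CPM in NRRA (1.69).

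**Figure D4:**
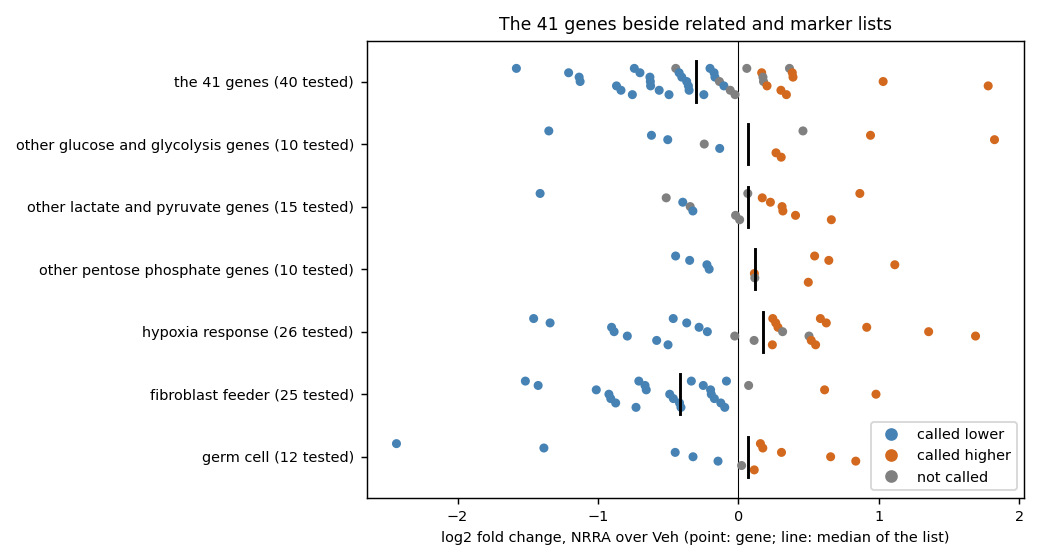
Fitted log2 fold change of every tested gene (points, coloured by the call) in the 41 genes, in related lists and in marker lists, with a line at each median. The medians are -0.30 for the 41 genes, 0.07, 0.07, 0.12 and 0.18 for the related lists, -0.42 for fibroblast markers and 0.07 for germ cell markers.

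Fibroblast markers fell together with the glycolytic genes. Of 25, 22 were called lower and 2 higher, with a median log2 fold change of -0.42, from Timp1, an inhibitor of matrix proteases (-1.52), to the growth factor receptor gene Pdgfra (0.98). Their summed share of counts was 1.25% and 1.24% in Veh and 1.01% and 0.986% in NRRA, and none was at 0 in any library. The list was uneven, as genes named after their values were seen show. Fn1 (fibronectin) had a log2 fold change of -0.49, Col1a1 one of -0.10, and Col3a1 rose by 0.61. The 12 germ cell markers took 0.273% and 0.281% of counts in Veh and 0.282% and 0.281% in NRRA, with 6 called higher, 5 lower and a median of 0.07. Their total was level while single genes moved far, from Zbtb16, a transcription factor of undifferentiated spermatogonia (-2.44), to Sall4, another factor of spermatogonia (0.84). Gfra1, the GDNF receptor gene of the stem cells, named after its values were seen, fell by 1.39 on the log2 scale. Markers of the somatic cells of the testis were scarce. The 8 Sertoli genes took 0.00364% and 0.00400% of counts in Veh against 0.00232% and 0.00230% in NRRA. None was at 0, but only 5 had enough counts to be tested, and Amh and Rhox5 held 1 to 3 counts in each library. Most of the Sertoli sum in Veh was Sox9, which fell from 27.1 and 29.4 CPM to 9.33 and 9.43 CPM (log2 fold change -1.59), while Aard (1.95) and Inha (0.53) were called higher. The 5 Leydig genes took 0.000728% to 0.000987%. Glycolytic genes are expressed in these somatic cells and in fibroblasts as well as in germ cells, and the part of feeder and Sertoli cells in the falls described here was not tested.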

How the data were processed

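Gene counts were measured in 4 bulk RNA-seq libraries, 2 of NRRA and 2 of Veh, grouped and numbered by their titles. The numbers of the Veh libraries differ between titles and descriptions, and the protocol label names NRRA for every library. The deposited counts are raw whole numbers per gene for each library. Per the labels, the authors used bcl2fastq, STAR 2.6.1c and featureCounts 1.6.4 on mm10; the annotation release and the settings for strand and multiple mapping are not given in the sources used here. The library kit is named differently in the labels and in the study's methods.

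All genes were fitted with edgeR 4.0.16 (R 4.3.3): filterByExpr, TMM factors (0.969 to 1.03), robust quasi-likelihood F test without a block, Benjamini-Hochberg adjustment over the 20232 genes kept, and a threshold of 0.05. The script was tested on simulated data. The common biological coefficient of variation was 2.61%. Counts of replicates differed beyond sampling noise (chi-square per degree of freedom 2.45 in Veh and 1.99 in NRRA). A floor of 3 counts is 0.0921 to 0.111 CPM and covers counting error only. GENCODE M21 gave exons and lengths for 55240 of the genes (99.7%). Identity was computed with BLAST.

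The 41 genes and all lists were chosen with earlier results of these data known. Values in every library are given for germline isoforms and their counterparts, the largest change of each role and changes of at least 2-fold, and also for genes near the threshold. Shares of families other than the germline pairs and hexokinase were added after the values were seen. Alternatives were DESeq2 1.42.0, other scalings and filters, a replicate block, leaving out each library, and added counts of near-identical copies.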

Additional observations from a re-analysis of the deposited data

How the results depend on the processing

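Over 15 alternatives, 4 of the 41 genes were called lower by at least 2-fold in each, 21 to 24 lower and 5 to 9 higher, the lowest of these (5) with DESeq2. The median log2 fold change was -0.35 with DESeq2 and -0.34 with no filter, both over 41 genes since Pgk2 then enters; over the same 40 genes it was -0.29 in both. Over the 40 it was -0.21 with library size only and -0.31 to -0.26 when 1 library was left out. Library size only called 6962 of all genes higher and 4593 lower, against 5654 and 5752 with TMM, and turned Pgam2 to 0.031 and Pdk3 to 0.066, neither of them called. It also moved called genes by over 1.5 times, namely Gpi1 (-0.083), Pfkm (-0.156), Slc16a1 (-0.112) and Ldhb (0.256), which kept their calls. Leaving out 1 library turned genes that were not called: Pgam2 (-0.178 to 0.078), Aldoc (-0.274 to 0.002), Gapdhs (-0.046 to 0.368), Slc16a3 (-0.042 to 0.376) and Pdha2 (-0.021 to 0.147). Over all alternatives and the 40 genes, 567 results kept direction and call, 18 lost the call, 7 gained one and 8 turned. Those lost were of Slc2a1, Taldo1, Pfkfb2, Pdk2, Ldhb and the enolases Eno2 and Eno3. Aldoc gained a call without NRRA replicate 2 (adjusted p = 0.0143), and Pfkfb1 gained one in 6 alternatives. The replicate numbers of the titles, which differ from those of the descriptions in Veh, did not pair the libraries (r = -0.0106 over 20232 genes); with the replicate block, 9 genes were called higher, 24 were called lower and the median was -0.30, the added gene being Pfkfb1 (0.36, adjusted p = 0.0466). Shares depended on the length. With the longest transcript or the longest coding transcript, Ldhc was 1.88% in Veh and 2.44% in NRRA, Pdha2 27.8% and 36.2%, and Hk2 64.7% and 43.8%. Gapdhs in Veh was 1.67% with the longest transcript, 0.729% with the longest coding transcript and 1.62% with counts of copies added, and in NRRA it was 1.26% with the longest coding transcript. Depth limits Pgk2, with at most 6 counts. With 1 library left out, the lone library of its group is assumed to vary like the others. The cause of these differences was not tested.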
